A study of Mus musculus with 6 samples.

Results

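The genes described here act in, or regulate, the uptake and breakdown of glucose and fructose in liver: Slc2a2, Gckr, Pfkl, Pfkfb1, Aldoa, Khk, Pklr and Ldha. They were named by gene, and a probe set was taken as theirs when its annotation named exactly 1 of them. By that rule 7 of the 8 genes had a probe set, 15 probe sets in all, among 18193 genes and 45101 probe sets of the series. Pfkfb1, the liver form of the enzyme that makes and removes fructose 2,6-bisphosphate, had no probe set under the rule and was not analysed here. For each gene the brightest probe set by its mean over 6 arrays gave the main value, and the other probe sets are given beside it.

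Liver RNA from male C57BL/6J mice aged 8 weeks was measured on 6 Affymetrix mouse expression arrays, each labelled as a biological replicate. The arrays formed 3 groups of 2: Cnot3+/- mice deprived of food for 24 h, wild-type mice deprived of food for 24 h, and wild-type mice fed normal chow. The product of Cnot3 belongs to CCR4-NOT, a protein complex that removes poly(A) tails from mRNAs. Which part of the Cnot3 allele was removed is not given in the sources used here, and the design holds no fed Cnot3+/- group, so genotype was compared in fasted liver only. The values are RMA levels on the log2 scale, where a difference of 1 is a 2-fold difference. Levels of different probe sets cannot be set against each other, so each gene was compared with itself across groups.

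Glucose and fructose enter hepatocytes through the transporter encoded by Slc2a2. Glucose is phosphorylated, a step that the regulatory protein encoded by Gckr restrains, and then passes through phosphofructokinase, aldolase and pyruvate kinase to pyruvate, which lactate dehydrogenase interconverts with lactate. Fructose bypasses phosphofructokinase: ketohexokinase, encoded by Khk, phosphorylates it and aldolase cleaves the product. In the fed liver these steps supply carbon for fat synthesis, and the transcription factor ChREBP, encoded by Mlxipl, raises Pklr and other genes when carbohydrate is plentiful. In the fasted liver the flow turns towards glucose production.

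The promoters of the 3 genes that passed the test for fasting are shown because they differ in which motifs of glucose and hormone control their letters match. Each stretch is the 250 bases before a RefSeq transcript start of the mouse assembly GRCm38.p6, on the plus strand. The Pklr stretch lies before the downstream of its 2 starts, chr3:89136373-89136622, and the capitals mark its match to the carbohydrate response element bound by ChREBP. The Khk stretch is chr5:30921309-30921558, with capitals on an E-box and on an HNF1 core. The Ldha stretch lies before the upstream of its 2 starts, chr7:46845554-46845803, with capitals on E-boxes and on a cAMP response element.
Pklr: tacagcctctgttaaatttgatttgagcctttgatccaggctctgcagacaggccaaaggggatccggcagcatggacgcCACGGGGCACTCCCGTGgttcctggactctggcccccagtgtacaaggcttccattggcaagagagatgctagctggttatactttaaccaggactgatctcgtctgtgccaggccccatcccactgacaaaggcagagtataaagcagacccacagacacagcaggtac
Khk: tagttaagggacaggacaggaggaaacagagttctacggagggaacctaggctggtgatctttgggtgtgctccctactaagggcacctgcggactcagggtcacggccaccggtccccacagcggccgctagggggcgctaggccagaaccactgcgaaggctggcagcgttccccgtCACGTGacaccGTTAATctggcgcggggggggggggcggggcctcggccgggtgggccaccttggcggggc
Ldha: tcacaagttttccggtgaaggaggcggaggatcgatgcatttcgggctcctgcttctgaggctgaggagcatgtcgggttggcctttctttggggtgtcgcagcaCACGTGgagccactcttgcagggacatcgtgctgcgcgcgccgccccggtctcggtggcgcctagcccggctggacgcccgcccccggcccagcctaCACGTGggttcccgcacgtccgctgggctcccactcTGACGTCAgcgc

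The motifs were searched on both strands in RefSeq windows running from 250 bases before to 50 bases after each start, and all 8 genes had at least 1 window. For the 8 genes only matches that begin before the start are given, while the shares of all windows also count the 50 bases after it. The carbohydrate response element, searched as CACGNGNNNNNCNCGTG, matched 170 to 154 bases before the Pklr start. It was found in 15 of 32851 windows (0.0457%) and, before the start, in no other window of the 8 genes. The E-box CACGTG was found in 7.15% of all windows; it lay 71 to 66 bases before the Khk start, and in the Ldha window there were 2, at 145 to 140 and at 48 to 43 bases before the start. The HNF1 core GTTAAT, present in 7.1% of windows, lay 60 to 55 bases before the Khk start and 59 to 54 bases before the Gckr start, and also in 1 of the 4 Pfkfb1 windows. The cAMP response element core TGACGT, present in 7.51% of windows, matched Ldha on both strands between 12 and 5 bases before the start. The hypoxia response core ACGTG, present in 19.6% of windows and contained in each E-box, added a separate Ldha match at 34 to 30 bases before the start and a match in 2 of the 3 Aldoa windows. These matches describe letters in the windows and show no binding. Only the exact letters given were searched, so a window without a match is not shown to lack a site of that factor. That holds for Pklr and the HNF1 core: its printed stretch holds gttatactttaacc, which the letters GTTAAT do not match.

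**Figure D1:**
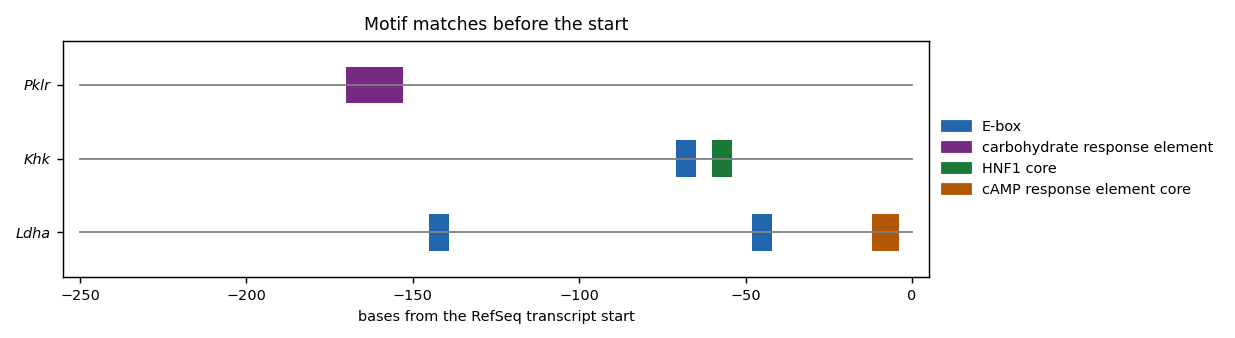
Motif matches in the 250 bases before a RefSeq transcript start of Pklr, Khk and Ldha; the horizontal axis is the distance from the start in bases and each coloured block spans a match. The single Pklr block spans 170 to 154 bases before the start, and the Ldha line carries 2 E-box blocks and, nearest to the start, the cAMP response element block.

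All 10 hepatocyte markers, albumin and transthyretin among them, were above the array median on every array, and their summed linear level was 295385 to 301749 in fasted Cnot3+/-, 289488 to 301118 in fasted wild-type and 274853 to 289114 in fed wild-type livers. Every main probe set of the 7 genes was also above the array medians, which lay between 5.59 and 5.64. Cnot3 itself read 9.40 and 9.16 on the arrays labelled Cnot3+/- and 9.27 and 9.32 on the fasted wild-type arrays, a difference of -0.01 (95% interval -0.33 to 0.30), so the probe set does not check the genotype label. The fasted arrays numbered 1 and 2 differed from each other in a like way in both genotypes (r = 0.45 between the groups' deviations across 18193 genes, which are not independent replicates), and the numbers are not stated to mark a shared day or litter.

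**Figure D2:**
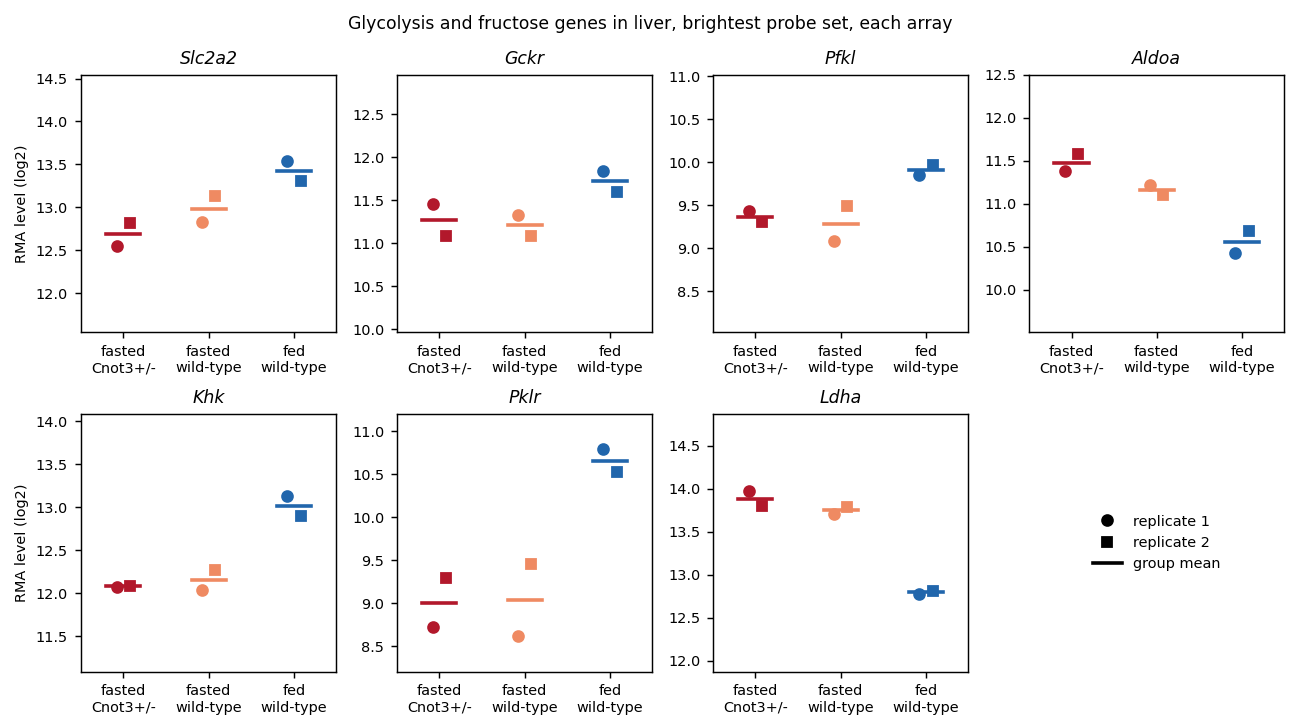
RMA level (log2, vertical axes, each spanning 3 units) of the 7 genes on each array, for fasted Cnot3+/-, fasted wild-type and fed wild-type liver; circles are replicates 1, squares replicates 2 and bars group means. The fed arrays lie above all 4 fasted arrays for Slc2a2, Gckr, Pfkl, Khk and Pklr and below them for Aldoa and Ldha.

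After 24 h without food, wild-type liver held less mRNA of ketohexokinase and of liver pyruvate kinase and more of lactate dehydrogenase A. Khk and Pklr fell and Ldha rose in the limma test, with Benjamini-Hochberg adjustment over all 18193 genes (adjusted p under 0.05). Slc2a2, Gckr, Pfkl and Aldoa did not pass. Thus 2 of 7 genes fell, where 3.15% of all genes fell, and 1 of 7 rose, where 1.87% of all genes rose. All 7 genes had fasted and fed arrays that did not overlap, as did 50.8% of all genes. The median difference of the 7 genes was -0.51, against 0.02 over all genes. Because the genes were chosen with earlier results of these data known, these counts are a description.

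Slc2a2, the hepatic transporter of glucose and fructose, read 12.83 and 13.13 in fasted wild-type and 13.54 and 13.31 in fed wild-type liver. Both fasted arrays were below both fed arrays, and the difference was -0.45 (SE 0.16, limma adjusted p = 0.199), or 0.734 of the fed level with a 95% interval of 0.561 to 0.960. Gckr, the regulatory gene of glucose phosphorylation, read 11.33 and 11.08 in fasted wild-type and 11.85 and 11.60 in fed wild-type liver. Its groups did not overlap either, and the difference was -0.51 (SE 0.18, adjusted p = 0.168). The mRNA levels of the importer and of this regulator were thus lower on each fasted array without passing the test.

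Pfkl encodes the liver form of phosphofructokinase, the committing step of glycolysis. Its brightest probe set read 9.08 and 9.49 in fasted wild-type and 9.85 and 9.96 in fed wild-type liver, a difference of -0.63 (SE 0.16, adjusted p = 0.076). Its second probe set read 8.26 and 8.55 in fasted wild-type and 8.78 and 8.86 in fed wild-type liver (difference -0.41). Both bright probe sets were therefore lower on each fasted array. The dimmest one, at 4.37 to 4.67 over the wild-type arrays, was dimmer than the median probe set, so no signal over background was shown for it.

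Aldoa encodes aldolase A, the form found in most tissues. It read 11.22 and 11.10 in fasted wild-type and 10.42 and 10.68 in fed wild-type liver, a difference of 0.61 (SE 0.14, adjusted p = 0.0612). All 5 Aldoa probe sets were higher on fasted wild-type than on fed wild-type arrays, by 0.23 to 0.77. None of the 5 passed the test over all probe sets. Each of them is of the kind that Affymetrix marks as sharing probes with other sequences (_x_at), and mouse has retrogene copies of Aldoa, so signal from near-identical copies cannot be separated from Aldoa itself. With cyclic loess or with centring on brighter genes Aldoa passed the test (adjusted p = 0.0497 and 0.0458).

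Khk encodes ketohexokinase, which traps fructose in the hepatocyte. It read 12.04 and 12.27 in fasted wild-type and 13.13 and 12.90 in fed wild-type liver. Both fasted arrays lay below both fed arrays by more than the gap between replicates, and the difference was -0.86 (SE 0.14, adjusted p = 0.0195), or 0.551 of the fed level (interval 0.439 to 0.691). With single wild-type arrays left out the difference ran from -0.98 to -0.75 and the adjusted p from 0.053 to 0.143, so the call needs all 4 arrays.

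Pklr encodes the pyruvate kinase of liver and red cells, the last step of glycolysis. It showed the greatest fall of the 7 genes: its brightest probe set read 8.62 and 9.46 in fasted wild-type and 10.79 and 10.52 in fed wild-type liver. The groups were well apart although the fasted arrays differed from each other by 0.84. The difference was -1.62 (SE 0.30, adjusted p = 0.0286), or 0.326 of the fed level with an interval of 0.201 to 0.529. Its second probe set read 8.59 and 9.88 in fasted wild-type and 10.57 and 10.25 in fed wild-type liver, and its dimmest 8.23 and 9.02 in fasted wild-type against 9.83 and 9.38 in fed wild-type liver. All 3 probe sets were thus lower in each fasted liver, with mean differences of -1.62, -1.18 and -0.98, and in each the fasted array numbered 1 was the lowest of the 4 wild-type arrays. The mean over the 3 probe sets gave -1.26 (limma adjusted p = 0.16). In a limma fit over all probe sets none of the 3 passed. The adjusted p there was 0.0605 for the brightest, 0.416 for the second and 0.311 for the dimmest. The interval of the second, -2.54 to 0.19, included 0. Without fasted wild-type replicate 1 the difference was -1.20 (adjusted p = 0.134); without fed replicate 1 it was -1.49 (0.121) and without fed replicate 2 it was -1.75 (0.0953).

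Pklr has an upstream promoter used in red cells and a downstream one used in liver, and the probe sets are not assigned here to either. The erythroid marker list had 3 of 6 genes measured, and its summed linear level was 627 to 842 in fasted wild-type and 1106 to 1379 in fed wild-type liver. Hba-a1 and Slc4a1 were at or under the median of every array, so that sum is nearly all Alas2. The part of red cells in the lower Pklr level was not tested. In whole liver, fewer cells of a type and less RNA per cell cannot be told apart.

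Ldha encodes the lactate dehydrogenase subunit found in most tissues and in liver. It read 13.71 and 13.78 in fasted wild-type and 12.77 and 12.82 in fed wild-type liver. Replicates differed by at most 0.07 and the groups by 0.95 (SE 0.12, adjusted p = 0.00781), a 1.94-fold rise with an interval of 1.59 to 2.36. Ldha ranked 192 of 18193 genes by p in this comparison, ahead of Khk at 367 and Pklr at 547. The rise was 0.92 to 0.99 with single wild-type arrays left out, and the call was lost when either fasted wild-type array was left out (adjusted p = 0.0705 without replicate 1, 0.0682 without replicate 2).

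Ldha and Aldoa are also expressed by the other cells of the liver and by muscle. The summed level of 7 macrophage markers was 5727 to 6107 in fasted wild-type and 4450 to 4699 in fed wild-type liver, with 7 of 7 higher after fasting and 0 of 7 past the test. That of 6 endothelial markers was 3106 to 3257 in fasted wild-type and 2747 to 2757 in fed wild-type liver, with 4 of 6 higher and 1 of 6, Lyve1, past the test (1.58). Over all genes, 54.7% were higher after fasting. The macrophage markers all lay above the array medians. Their part in the Ldha and Aldoa values was not tested. Of 6 skeletal muscle markers, 5 were at or under the array median on every array, and the summed level was 223 to 227 in fasted wild-type and 205 to 230 in fed wild-type liver.

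**Figure D3:**
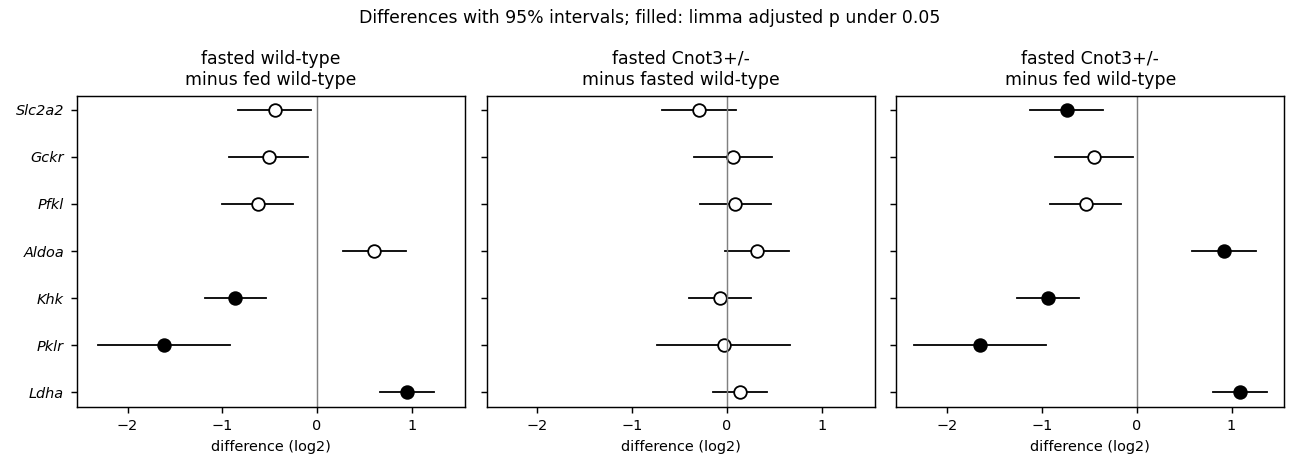
Log2 difference (horizontal axis) of each gene in 3 comparisons, with the 95% interval from limma; filled points passed an adjusted p under 0.05. Khk, Pklr and Ldha are filled in the fasting panel, no gene is filled in the genotype panel, and Slc2a2, Aldoa, Khk, Pklr and Ldha are filled in the panel of fasted Cnot3+/- against fed wild-type liver.

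Of 22 further glycolytic genes 17 were measured, and Aldoc, the brain form of aldolase, fell while the other 16 did not pass (median difference -0.03; 5.02% of all genes were called in either direction). Aldoc read 7.85 and 7.72 in fasted wild-type and 9.21 and 9.27 in fed wild-type liver (difference -1.46, SE 0.16, adjusted p = 0.00464). The muscle and general form of pyruvate kinase, Pkm, differed by -0.45 (adjusted p = 0.0823), and triose phosphate isomerase Tpi1 by 0.28 (adjusted p = 0.281). Gpi1 and Eno1 were among those with no probe set under the same rule and were not analysed here. Aldoa and Aldoc therefore did not share a direction: Aldoa was higher and Aldoc lower on each fasted wild-type array.

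Downstream of Khk and around fructose, 6 of 8 genes were measured and none passed. The fructose transporter Slc2a5 differed by 0.37 (adjusted p = 0.289) and the glycerate kinase Glyctk by 0.21 (adjusted p = 0.468). Tkfc, which phosphorylates the glyceraldehyde released from fructose, differed by -0.24 (SE 0.24, adjusted p = 0.674). Among 11 other hexose and lactate transporters none passed; the lactate carrier Slc16a1 differed by 0.48 (adjusted p = 0.174) and the urate and fructose transporter Slc2a9 by -0.32 (adjusted p = 0.253).

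Among 10 measured regulators of the route, Mlxipl fell and 9 did not pass. Mlxipl, the gene of ChREBP, read 10.55 and 10.05 in fasted wild-type and 11.77 and 11.76 in fed wild-type liver, a difference of -1.46 (SE 0.29, adjusted p = 0.036). Its relative Mlxip differed by 0.50 (adjusted p = 0.0619), and the hepatocyte factor Hnf4a by 0.07 (adjusted p = 0.866). In the pentose phosphate pathway, which branches off before phosphofructokinase, 2 of 7 measured genes fell: Pgd by 1.25 (SE 0.23, adjusted p = 0.0283) and transketolase Tkt by 1.03 (SE 0.16, adjusted p = 0.0173). The median of those 7 genes was -0.55. Over all genes 3.15% fell and 1.87% rose in this comparison. Of 10 further genes known as ChREBP targets, most of them lipogenic, 6 fell and 1 rose, with a median of -1.30. Those that fell were the lipogenic genes Thrsp (-3.68), Fasn (-3.27), Acly (-2.34), Elovl6 (-2.23), Acaca (-1.73) and Scd1 (-0.82). The gene that rose was Txnip, by 1.74 (limma adjusted p = 0.0034). The part of ChREBP in these values was not tested. Of the genes that passed in these lists, Aldoc, Thrsp, Fasn, Acly, Elovl6 and Txnip passed with any 1 of the 4 wild-type arrays left out. Mlxipl (adjusted p = 0.111 to 0.199) and Scd1 (0.0602 to 0.149) passed in none of those fits, Acaca did not pass without fasted wild-type replicate 1 (0.0501), and Pgd and Tkt passed only without fasted wild-type replicate 2 (up to 0.127 and 0.0988 without the other arrays).

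**Figure D4:**
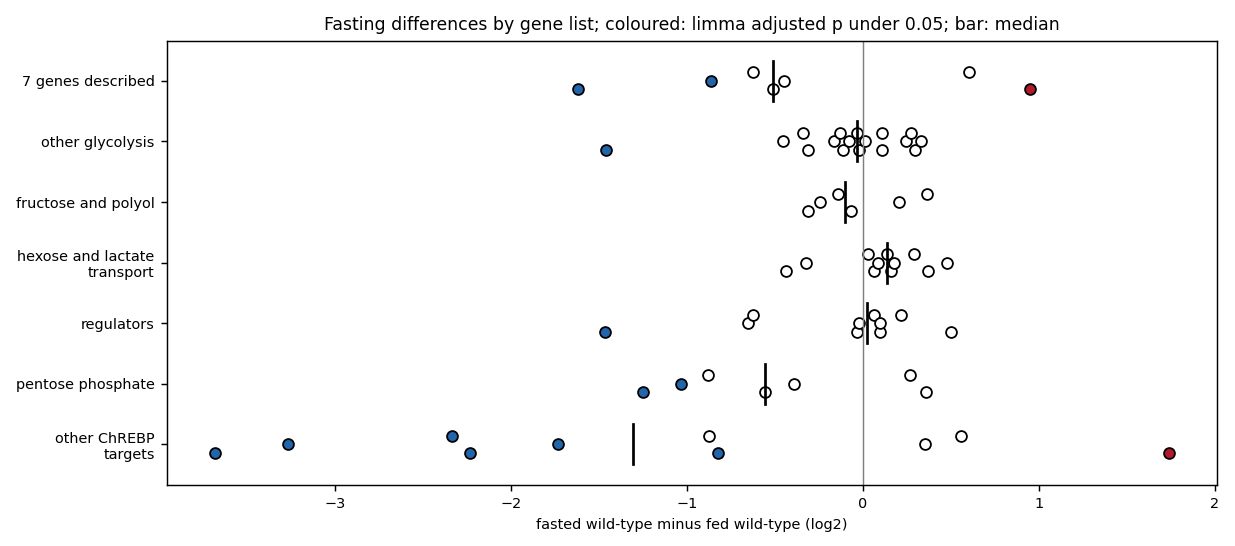
Log2 difference of fasted wild-type minus fed wild-type liver (horizontal axis) for each measured gene of 7 lists; points are genes, coloured where the limma adjusted p was under 0.05, and bars are list medians. The medians are -0.51 for the 7 genes described, -0.03 for other glycolytic genes, -0.55 for the pentose phosphate genes and -1.30 for other ChREBP targets.

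Between the fasted genotypes, none of the 7 genes passed the test. limma called 0 of 18193 genes (0%), and with a variance trend the count of called genes was also 0. An unadjusted limma p under 0.05 was found for 1011 genes, a limit that a share of 0.05 of unchanged genes would reach. The differences of the 7 genes ran from -0.29 to 0.32 with a median of 0.06, against 0.00 over all genes. The groups did not overlap for 3 of 7 genes, and for 36% of all genes.

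Aldoa was the gene with the smallest p of the 7 in this comparison. It read 11.38 and 11.58 in fasted Cnot3+/- and 11.22 and 11.10 in fasted wild-type liver, a difference of 0.32 (SE 0.14, adjusted p = 0.863) with an interval of -0.02 to 0.66. All 5 probe sets were higher on average in Cnot3+/- liver, by 0.11 to 0.32. The macrophage markers were higher as well, at a summed level of 6664 to 9676 in fasted Cnot3+/- against 5727 to 6107 in fasted wild-type liver. Of their differences 7 of 7 were positive, where 49.6% were over all genes, and 0 of 7 passed the test. The part of the macrophage markers in the Aldoa values was not tested.

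Slc2a2 read 12.55 and 12.82 in fasted Cnot3+/- and 12.83 and 13.13 in fasted wild-type liver (difference -0.29, SE 0.16, adjusted p = 0.865). The groups almost touched, the higher Cnot3+/- array lying just under the lower wild-type array. Ldha read 13.97 and 13.80 in fasted Cnot3+/- and 13.71 and 13.78 in fasted wild-type liver (difference 0.14, interval -0.15 to 0.42), so a genotype difference larger than 1.34-fold upward lies outside its interval. Khk read 12.08 and 12.09 in fasted Cnot3+/- and 12.04 and 12.27 in fasted wild-type liver, a difference of -0.08 (interval -0.40 to 0.25).

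Gckr and Pfkl differed by 0.06 (interval -0.35 to 0.48) and 0.09 (interval -0.29 to 0.46). Pklr was measured least precisely: its brightest probe set read 8.72 and 9.29 in fasted Cnot3+/- and 8.62 and 9.46 in fasted wild-type liver, a difference of -0.04 with an interval of -0.73 to 0.66, or 0.601 to 1.58 times the wild-type level. Its other probe sets read 7.75 and 9.30, and 7.44 and 8.45, in fasted Cnot3+/- liver, against 8.59 and 9.88, and 8.23 and 9.02, in fasted wild-type liver. Those gave differences of -0.71 (interval -2.07 to 0.66) and -0.68 (interval -1.61 to 0.25), so the size of any genotype difference in Pklr depended on the probe set. In all 3 probe sets and both genotypes the array numbered 1 was the lower.

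**Figure D5:**
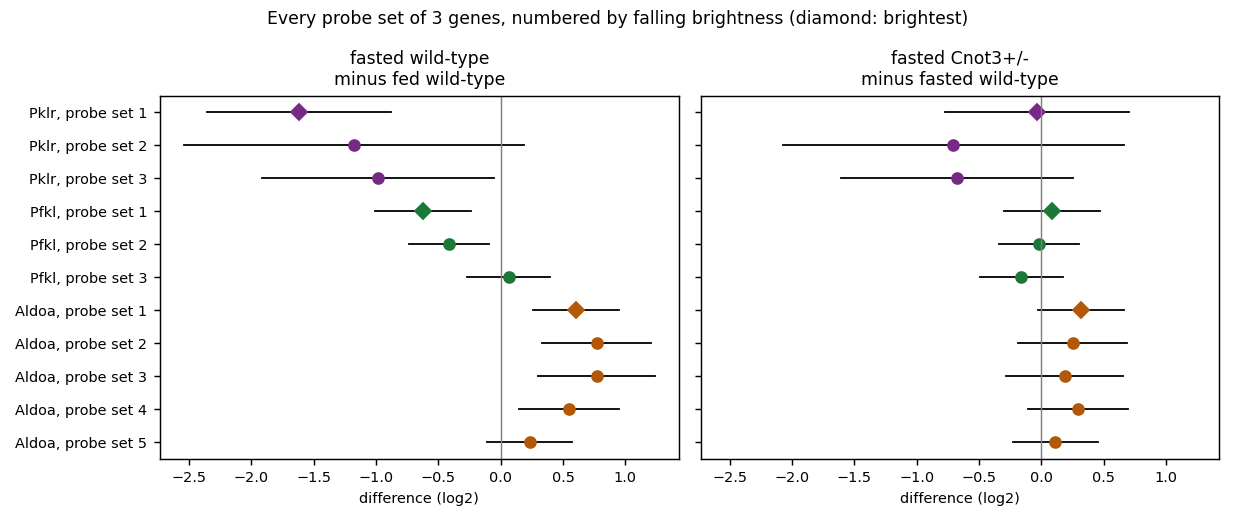
Log2 difference (horizontal axis) with its 95% interval for every probe set of Pklr, Pfkl and Aldoa, for fasting and for genotype, numbered by falling brightness with the brightest as a diamond. All 3 Pklr probe sets lie below 0 and all 5 Aldoa probe sets above 0 in both panels. The intervals of the genotype panel all include 0. In the fasting panel those of the second Pklr probe set and of the dimmest Pfkl and Aldoa probe sets include 0.

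In the other lists no gene passed between the fasted genotypes either. The genes with the smallest p in each list, all with an adjusted p of 0.863 or above, were Adpgk (0.42) and Pkm (0.33) among glycolytic genes, Glyctk (-0.33) and Slc2a8 (0.14) around fructose, and Slc2a1 (0.55) and Slc2a3 (0.44) among transporters. Slc2a3 lay under the array median on 3 of these 4 arrays. They were Mlx (-0.50) and Pfkfb2 (0.47) among regulators, Rpe (-0.53) and H6pd (0.21) in the pentose phosphate pathway, and Elovl6 (-0.78) and Txnip (0.76) among ChREBP targets. Mlxipl read 10.86 and 9.96 in fasted Cnot3+/- and 10.55 and 10.05 in fasted wild-type liver, a difference of 0.11 (SE 0.29).

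Fasted Cnot3+/- liver was also set against fed wild-type liver, a comparison that shares the fed arrays with the fasting comparison and that joins genotype and fasting. Khk, Pklr and Slc2a2 were lower and Ldha and Aldoa higher at an adjusted p under 0.05. That made 3 of 7 genes lower, where 3.68% of all genes were lower, and 2 of 7 higher, where 3.88% were higher (7.56% in either direction); the groups of all 7 genes did not overlap, as for 48% of all genes. Ldha differed by 1.09 (SE 0.12, adjusted p = 0.00398; 2.13-fold), Aldoa by 0.93 (SE 0.14, adjusted p = 0.0121; 1.90-fold) and Slc2a2 by -0.74 (SE 0.16, adjusted p = 0.0401; 0.599 of the fed level). Khk differed by -0.94 (SE 0.14, adjusted p = 0.0105) and Pklr by -1.65 (SE 0.30, adjusted p = 0.0203). In a limma fit over all probe sets, 1 of 3 Pklr and 2 of 5 Aldoa probe sets passed. The only Slc2a2 probe set did not pass there (adjusted p = 0.0759). The 3 Pklr probe sets differed by -1.88 to -1.65 and the 5 Aldoa probe sets by 0.34 to 1.02. With the mean over probe sets Pklr did not pass (limma adjusted p = 0.0550).

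Gckr and Pfkl did not pass, with differences of -0.45 (adjusted p = 0.197) and -0.54 (adjusted p = 0.0975). Slc2a2 and Aldoa passed here and not in wild-type fasting; the direct comparison of the fasted genotypes, given above, is the test of that difference, and neither passed it. Ldha passed with any 1 of the 6 arrays left out. Slc2a2 passed in none of those fits (adjusted p = 0.0593 to 0.175). Aldoa gave 0.0583 without fed replicate 1 and 0.0558 without Cnot3+/- replicate 2, and Khk 0.0523 without fed replicate 1. Pklr gave 0.0941 and 0.0677 without fed replicates 1 and 2 and 0.0745 without Cnot3+/- replicate 1. The macrophage list stood at 6664 to 9676 in fasted Cnot3+/- and 4450 to 4699 in fed wild-type liver. Of its 7 markers 7 were higher, where 50.5% of all genes were, and 3 passed upward: Marco (1.65), C1qa (0.84) and Vsig4 (0.75). Of 6 endothelial markers only 2 were higher, with a median of -0.05, and 1 of 6, Lyve1, passed (1.90). The summed endothelial level was 2723 to 3177 in fasted Cnot3+/- and 2747 to 2757 in fed wild-type liver. The part of either list in the Aldoa and Ldha values was not tested.

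In the other lists, Aldoc was lower (difference -1.26) and the muscle enolase Eno3 higher (0.66, adjusted p = 0.0491) in fasted Cnot3+/- than in fed wild-type liver. The glucose transporter Slc2a1 was higher by 0.92 (adjusted p = 0.0294); Slc2a3 also passed but was under the array median on 3 of these 4 arrays. Mlxipl was lower (-1.35, adjusted p = 0.0352) and Mlxip higher (0.67, adjusted p = 0.0202). In the pentose phosphate pathway Pgd, Rpe and Tkt were lower and H6pd higher. Of the 10 ChREBP targets 7 were lower and 1 higher, where 3.68% of all genes were lower and 3.88% higher. The 7 were Thrsp (-3.82), Fasn (-3.18), Elovl6 (-3.01), Acly (-2.71), Me1 (-1.51), Acaca (-1.48) and Scd1 (-0.94), and Txnip was higher (adjusted p = 0.00089). Aldoc, Thrsp, Fasn, Elovl6, Acly, Acaca and Txnip passed with any 1 array of these groups left out; Slc2a1, Pgd and H6pd passed in none of those fits, and Eno3, Slc2a3, Mlxipl, Mlxip, Rpe, Tkt, Me1 and Scd1 in 1 of 4. None of the 6 genes around fructose passed; Mpi (-0.48, adjusted p = 0.231) and Slc2a5 (0.35, adjusted p = 0.282) had the smallest p.

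Across the 3 groups, mean levels of Pklr were 9.00 in fasted Cnot3+/-, 9.04 in fasted wild-type and 10.65 in fed wild-type liver (SD 0.40, 0.60 and 0.19, n = 2 each). Those of Khk were 12.08, 12.16 and 13.02 in the same groups (SD 0.01, 0.16 and 0.16), and those of Ldha 13.88, 13.75 and 12.79 (SD 0.12, 0.05 and 0.03). For each of these genes both fasted groups lay apart from the fed group. The fasted groups overlapped for Pklr and Khk; for Ldha they did not overlap, and the difference between them did not pass the test.

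The genes nearest in pattern to Pklr, Khk and Ldha were sought among 9089 genes brighter than the median gene, by the root mean square difference of profiles over 6 arrays after each was centred on its own mean. For Pklr they were Msmo1, a methylsterol oxidase (0.06, Pearson r = 0.998), the retinol dehydrogenase Rdh11 (0.09, r = 0.994) and Olfml1 (0.15, r = 0.983). For Khk they were the mevalonate kinase gene Mvk (0.05, r = 0.995), Ebpl (0.05, r = 0.995) and the interleukin 13 receptor gene Il13ra1 (0.06, r = 0.992). For Ldha they were Zkscan17 (0.06, r = 0.993), the noncoding RNA gene Snhg12 (0.06, r = 0.997) and Bfar (0.07, r = 0.990). These likenesses describe 6 arrays that fall into fed and fasted sets. Msmo1 also showed the gap between the fasted arrays: it read 9.40 and 10.16 in fasted wild-type and 11.54 and 11.34 in fed wild-type liver.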

How the data were processed

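The deposited values are log2 expression levels per probe set, made by the authors with RMA (per the submitters' processing notes; version not given in the sources used here). Total RNA was extracted with ISOGEN, purified on RNeasy columns, and 10 ug were used for biotin-labelled cRNA, per the labels' protocols. The values were used as deposited. Of 45101 probe sets 64 are controls; of the others 34945 name a single gene, 932 several and 9160 none in GEO's platform annotation; 18145 of 18193 genes matched RefSeq symbols. The test was limma 3.58.1 (R 4.3.3), fitted once to 6 arrays as 3 group means, with 3 residual and 4.24 prior degrees of freedom, and p-values were adjusted by Benjamini-Hochberg over all genes. SE is limma's moderated standard error. The script was tested on simulated data. That test first required the right direction for every recovered gene, and the limit was relaxed after a wrong one was seen. An exact permutation of 2 arrays against 2 cannot give a p below 0.333. Promoter windows are RefSeq's, GRCm38.p6. Figures used matplotlib 3.10.9 on Python 3.11.15.

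The genes and lists were chosen with earlier results of these data known. The text names all 8 genes with every probe set, list genes that passed or otherwise the 2 with the smallest p (marker lists are given by counts, sums and the genes that passed), Cnot3, and the 3 genes nearest in pattern to Pklr, Khk and Ldha; Tkfc, Tpi1, Pkm, Mlxip, Hnf4a and Mlxipl in the genotype comparison were added after their values were seen, as were the fits that leave out an array for list genes. The array number limits the precision. There were 14 alternative settings.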

Additional observations from a re-analysis of the deposited data

How the results depend on the processing

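In wild-type fasting, 3 of the 7 genes passed with all arrays, and 0 to 3 passed with any 1 array left out: Ldha alone without either fed array, Pklr alone without fasted wild-type replicate 2, and none without fasted wild-type replicate 1. The count over all genes, 913, was 458 and 287 without fed replicates 1 and 2 and 137 and 193 without fasted wild-type replicates 1 and 2. For fasted Cnot3+/- against fed wild-type liver, 5 genes passed with all arrays and 1 to 4 with any 1 array left out; the count over all genes, 1375, was 743 and 597 without fed replicates 1 and 2, 929 and 696 without Cnot3+/- replicates 1 and 2, and 857 without either fasted wild-type array. No gene of the 7 reversed in either of these comparisons. Between the fasted genotypes, 0 of the 7 genes passed under all 14 settings, and 4 of them turned sign. The genotype difference of Pfkl was -0.031 with the mean over probe sets and, with 1 array left out, between -0.12 and 0.29, that of Gckr from -0.13 to 0.25, that of Khk from -0.19 to 0.037 and that of Pklr from -0.46 to 0.39. Over all genes 1 and 2 passed there without Cnot3+/- replicates 1 and 2. Fewer arrays leave fewer degrees of freedom in these fits; what else moves the calls was not tested. With the replicate number as a block, 3, 0 and 5 of the 7 genes passed in the fasting, genotype and joint comparisons, as without it, and 1206, 0 and 1708 genes over all. Same-numbered deviations correlated at 0.04 and -0.01 between the fed and the fasted groups and at 0.45 between the fasted groups. Aldoa has no probe set left when those shared between sequences are dropped, so it has no value there.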
